A study of Mus musculus with 6 samples.

Results

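The genes described here write, remove, scaffold or read acetyl marks on histones and other proteins. The list names 35 mouse genes, chosen by function: the 11 zinc-dependent histone deacetylases, acetyltransferases, coactivators, corepressor subunits and acetyl readers. Of these, 34 were measured by a probe set (the array's group of probes for a transcript) that the platform annotation pairs with exactly 1 gene. For genes with several such probe sets the brightest over all 6 arrays was used. The corepressor gene Ncor1 had no such probe set and was not analysed here. Genome-wide, 19937 genes were measured in the same way.

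The cells were adult neural stem cells and progenitors of 129SV mice of 8 weeks, grown first as neurospheres with EGF and bFGF, then plated on a coated surface and collected while dividing at passage 2. Control cultures came from Sirt1lox/lox mice, whose Sirt1 alleles are floxed and which express active SIRT1. Sirt1 inactive cultures came from NestinCre;Sirt1lox/lox mice, which carry the same floxed alleles and a Cre recombinase driven by Nestin, a promoter active in neural stem and progenitor cells. Each genotype has 3 samples, called biological replicates in their titles, with 1 array each; the labels do not say how many mice lie behind a sample, so p-values measure the spread between these cultures, which may be technical. The controls carry no Cre, and an effect of Cre cannot be told apart from that of Sirt1. The comparison asks whether transcripts of other acetylation genes differ when the NAD-dependent deacetylase SIRT1 is inactive.

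Protein acetylation is set by opposing enzymes. Acetyltransferases move an acetyl group from acetyl-CoA to a lysine, which loosens histone contacts with DNA and makes a binding site for bromodomain proteins. Deacetylases remove it: the zinc-dependent HDACs in classes I, II and IV, and the NAD-dependent sirtuins, to which SIRT1 belongs, as class III. HDAC1, HDAC2 and HDAC3 of class I work inside corepressor complexes built on SIN3, CoREST, NuRD or NCoR. In neural progenitors these complexes help to hold neuronal genes silent and take part in the choice between neuronal and oligodendrocyte fates.

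Sirt1 itself read 8.73, 8.78 and 8.55 on the control arrays and 8.26, 8.33 and 8.25 on the Sirt1 inactive arrays, in log2 units of RMA, the authors' normalization. The groups did not overlap, and the difference was -0.41 (SE 0.08), which did not pass over all probe sets (limma, adjusted p = 0.959, and 0.510 with the replicate number as a block). Which part of Sirt1 is floxed, and so whether this probe set reads it, is not known here. Of 9 measured progenitor markers, Nes (mean 11.64 in both groups) and Sox2 (11.70 in control and 11.63 in Sirt1 inactive) were bright. Prom1 was much lower, at 7.34 in both. The lower quartile of all tested values was 6.42, and 0 of the 9 lay below it. Of the 9 markers 4 were above 0 and 5 below, the highest being Nr2e1 at 0.18 (SE 0.08). Control replicate 3 was the least typical array: its values lay a median of 0.117 from the mean of the other arrays, compared with 0.059 to 0.089 for the rest. Markers of other cell types moved between groups or arrays. For 8 astrocyte markers the mean level was 9.96 on control replicate 3, the lowest control, while the highest control was at 10.84 and the Sirt1 inactive arrays spanned 10.74 to 10.90. For 10 neuroblast and neuron markers, 9 of them below 0, it spanned 8.59 to 8.85 in control and 8.33 to 8.56 in Sirt1 inactive. For 9 oligodendrocyte lineage markers it spanned 9.45 to 9.61 and 9.58 to 9.80, but 6 of the 9 were below 0, with a median difference of -0.10; Pdgfra (0.79), Gpr17 (0.75) and Sox10 (0.28) were above 0. Of 10 microglial markers 9 were below 0, with mean levels of 6.91 to 6.98 in control and 6.86 to 6.87 in Sirt1 inactive. Of these 10 markers 4 lay below the lower quartile, Aif1 among them at 6.14 and 6.13, while others such as Cd68 (8.18 and 8.25) lay above it. Tmem119 was the 1 microglial marker at an unadjusted p under 0.05, at -0.19, and with the block there were 2. Of all genes 61.0% were below 0. The part of these marker shifts in the results that follow was not tested.

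No acetylation gene passed the test. Of all 22961 tested probe sets 0% passed (limma, adjusted p under 0.05), and with the block the share was likewise 0%; the members' adjusted p ran from 0.959 to 0.999, and from 0.520 to 0.996 with the block. At an unadjusted p under 0.05 the members gave 1 gene, the class IIa deacetylase Hdac9, lower in the Sirt1 inactive cultures. Over all tested probe sets 2.63% were lower and 0.984% higher by that rule. With the block 2 members passed it, Hdac9 lower and the histone acetyltransferase Hat1 higher, against 5.08% lower and 2.5% higher of all probe sets. The split of 226 higher and 604 lower probe sets was 382 and 371 with array medians subtracted. Groups did not overlap for 5 members, all lower in Sirt1 inactive (Hdac9, Ncoa3, Brd3, Crebbp and Rcor1), and for 0 members higher. Among all probe sets 6.71% were lower without overlap and 2.62% higher. Overlap was counted on the deposited scaling only. There the margins of Hdac9 and Brd3 were narrower than the gaps between the medians of the arrays concerned.

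The differences were small and centred close to 0. The median difference of the members was -0.03 on the log2 scale, against -0.02 for all genes, and 22 of 34 members (64.7%) were below 0, against 61.0% of all genes. All but Kat2b lie at or above the median level, and among the 9969 genes in that upper range 52.3% were below 0, with a median of -0.005; 483 of these were lower without overlap, against 5 of 34 members. With array medians subtracted the members' median was -0.01 and 52.9% lay below 0, against 49.6% of all genes and 40.5% of those in the upper range. The median size of a difference, whatever its sign, was 0.05 for members and 0.06 for all genes. Only Hdac9 and Hat1 differed by more than 0.2, 5.88% of the members against 6.37% of all genes. For 28 of the 34 members the range of the 3 control arrays exceeded the difference between the groups (82.4%, against 89.5% of all genes).

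**Figure D1:**
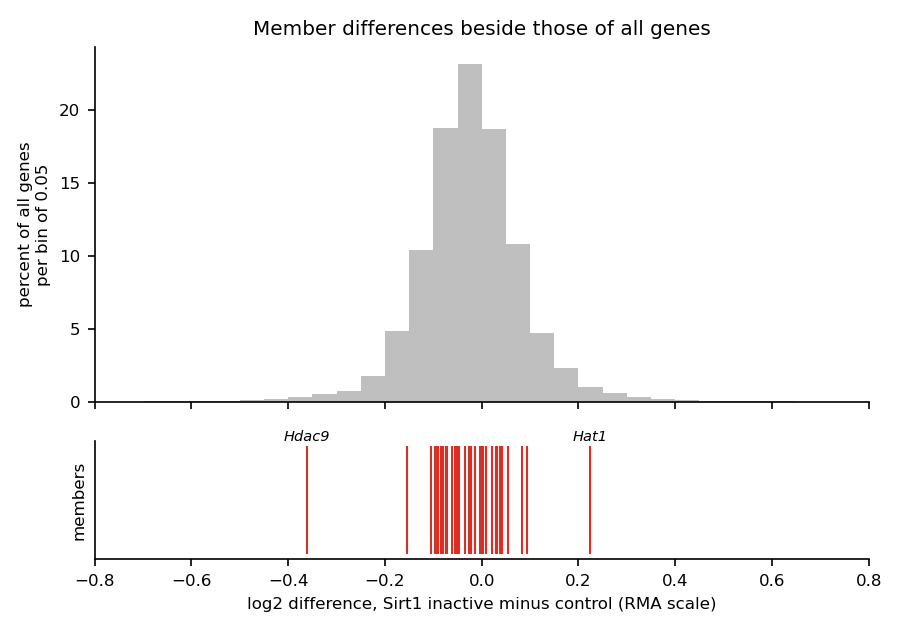
Log2 differences (Sirt1 inactive minus control, RMA scale) of all 19937 genes as percent per bin of 0.05 (grey bars, bins starting at 0.8 or beyond either way not shown) and of the 34 members (red lines). The members crowd around their median of -0.03, with Hdac9 at -0.36 and Hat1 at 0.22 standing apart from the rest.

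Hdac9 was the deacetylase with the smallest p. It belongs to class IIa with Hdac4, Hdac5 and Hdac7, enzymes of weak catalytic activity that bind MEF2 transcription factors and shuttle between nucleus and cytoplasm. Hdac9 read 9.24, 8.97 and 9.31 in control and 8.80, 8.68 and 8.96 in Sirt1 inactive. On the deposited scaling all 3 Sirt1 inactive arrays lay below all 3 controls. The highest of them, replicate 3, came close to control replicate 2, at 8.96 against 8.97. The medians of these arrays, 7.355 and 7.376, lay further apart. Subtracting array medians therefore turns this order, and the groups then overlap. The means were 9.18 ± 0.18 and 8.82 ± 0.14 (SD, n = 3), a difference of -0.36 (SE 0.11, 95% interval -0.62 to -0.10), or 0.779 times the control level. Hdac9 missed the threshold (unadjusted p = 0.0137; limma, adjusted p = 0.959). An exact two-sided permutation over samples reached 0.1 on the deposited scaling, the lowest value possible with 3 against 3. Same-numbered cultures differed by -0.44, -0.29 and -0.35, so the Hdac9 difference was alike across numbers, and with the block its SE was 0.06 (unadjusted p = 0.00134, adjusted p = 0.520). Leaving out 1 array gave differences of -0.46 to -0.29. Without Sirt1 inactive replicate 2 the unadjusted p was 0.0501, and with array weights, which count control replicate 3 least, the difference was -0.21 (unadjusted p = 0.0820). Of the 10 neuroblast and neuron markers 9 were below 0 in the same comparison, 3 of them at an unadjusted p under 0.05, with mean levels of 8.59 to 8.85 in control and 8.33 to 8.56 in Sirt1 inactive; their part in the Hdac9 value was not tested.

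The 250 bases before the Hdac9 start sites are shown because it was the member with the lowest p, beside those of Brd3 and Hat1, picked after their values were seen. Sequences are RefSeq's (GRCm38.p6), read 5′ to 3′ on the gene's strand, with CG dinucleotides in capitals.
Hdac9, first start, chr12:34917096-34917345, minus strand: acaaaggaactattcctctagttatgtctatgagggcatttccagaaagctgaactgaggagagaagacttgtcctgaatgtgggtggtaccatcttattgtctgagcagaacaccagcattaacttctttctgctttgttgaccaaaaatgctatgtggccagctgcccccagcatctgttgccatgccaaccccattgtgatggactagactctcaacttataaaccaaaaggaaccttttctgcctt
Hdac9, other start, chr12:34528890-34529139, minus strand: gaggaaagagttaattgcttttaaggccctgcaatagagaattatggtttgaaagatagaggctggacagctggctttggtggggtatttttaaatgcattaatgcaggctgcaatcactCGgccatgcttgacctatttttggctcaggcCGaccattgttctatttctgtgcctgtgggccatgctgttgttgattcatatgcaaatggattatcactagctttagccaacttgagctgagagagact
Brd3, chr2:27475399-27475648, minus strand: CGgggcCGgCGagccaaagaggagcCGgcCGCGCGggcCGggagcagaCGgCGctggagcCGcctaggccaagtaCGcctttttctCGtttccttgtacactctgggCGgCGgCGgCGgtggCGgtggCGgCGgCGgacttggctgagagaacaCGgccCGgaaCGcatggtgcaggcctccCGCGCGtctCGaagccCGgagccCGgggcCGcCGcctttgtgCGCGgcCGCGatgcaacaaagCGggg
Hat1, chr2:71389010-71389259, plus strand: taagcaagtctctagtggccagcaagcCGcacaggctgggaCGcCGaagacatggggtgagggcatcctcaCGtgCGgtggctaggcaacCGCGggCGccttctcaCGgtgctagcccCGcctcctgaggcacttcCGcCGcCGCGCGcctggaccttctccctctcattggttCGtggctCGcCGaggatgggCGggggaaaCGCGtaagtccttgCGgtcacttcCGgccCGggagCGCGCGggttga

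The sequences of Hdac9 hold 0 and 2 CG dinucleotides, the fewest of the members' windows; 7.9% of all 32851 promoter windows of this length hold 0, and 29.0% hold 2 or fewer. Brd3 holds 37 and Hat1 27, counts reached by 2.2% and 8.6% of all windows. Of the 34 members, 27 had a window. Taking each gene's richest start, their median was 24 CG dinucleotides against 6 for all genes in the table, and 24 of the 27 lay above that median. The 3 others were Hdac9 (2), Hdac8 (6) and Kat2b (6). This is a description of letters in these windows, with no measurement of methylation or binding behind it.

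The other class IIa genes had smaller differences. Hdac4 differed by -0.04 (SE 0.12), Hdac5 by 0.03 (SE 0.07) and Hdac7 by -0.06 (SE 0.08), which was -0.002 without control replicate 3. Hdac4 has a further probe set, which read 9.24, 9.30 and 9.44 in control and 9.11, 9.27 and 9.19 in Sirt1 inactive. Its groups overlapped and it differed by -0.14 (SE 0.08), the same sign as the brighter Hdac4 probe set, and by -0.08 without control replicate 3.

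All 4 class I deacetylase genes lay above 0, with a median of 0.04, but this sign was not stable: Hdac3 was at -0.010 after a renewed quantile normalization, Hdac8 at -0.075 with array weights, and Hdac1, Hdac3 and Hdac8 each turned sign when 1 array was left out. All of their groups overlapped. Hdac1 and Hdac2 encode the paired catalytic subunits of the SIN3, NuRD and CoREST complexes. Hdac1 read 11.49, 11.28 and 11.21 in control and 11.47, 11.33 and 11.35 in Sirt1 inactive. The array of number 1 was highest in both groups, and the difference of 0.05 (SE 0.09) was -0.006 without control replicate 3. The other Hdac1 probe set differed by 0.03 (SE 0.17); RefSeq annotates a pseudogene, Hdac1-ps, so the source of the signal is uncertain. Hdac2 read 10.99, 11.01 and 11.15 in control and 11.04, 11.09 and 11.11 in Sirt1 inactive. All 3 Sirt1 inactive values of Hdac2 lay inside the control range, and it differed by 0.03 (SE 0.07).

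Hdac3, the catalytic subunit of the NCoR and SMRT complexes, read 11.70, 11.74 and 11.72 in control and 11.68, 11.72 and 11.75 in Sirt1 inactive. It had the smallest difference of all members, 0.001 (SE 0.055, 95% interval -0.13 to 0.13), a sign that turned in several alternatives. Hdac8, which deacetylates cohesin, had the widest interval, -0.29 to 0.46. It read 8.12, 8.39 and 8.09 in control and 8.11, 8.64 and 8.10 in Sirt1 inactive. The arrays of number 2 stood above the others in both groups, and its difference of 0.08 (SE 0.16) was -0.09 without Sirt1 inactive replicate 2.

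The class IIb and IV genes were near 0. Hdac6, the cytoplasmic tubulin deacetylase, differed by 0.04 (SE 0.06) and Hdac11, the lone class IV enzyme, by -0.01 (SE 0.07; 0.011 with array medians subtracted). Hdac10, a polyamine deacetylase, differed by -0.08 (SE 0.11) with control values of 7.94, 8.25 and 8.35 and Sirt1 inactive values of 8.12, 8.06 and 8.12. Control replicate 1 was the low value there. Without it the Hdac10 difference was -0.20 (unadjusted p = 0.0260; limma, adjusted p = 0.741), and without control replicate 3 it was 0.0008.

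Among the acetyltransferases the 3 genes of the GNAT group and Hat1 were above 0, with a median of 0.09. Hat1 acetylates newly made histones before they are laid down on replicating DNA. It read 10.94, 11.08 and 10.80 in control and 11.04, 11.46 and 11.00 in Sirt1 inactive. The groups overlapped, since Sirt1 inactive replicates 1 and 3 lay between control replicates 1 and 2, and Sirt1 inactive replicate 2 was the highest array. The means were 10.94 ± 0.14 and 11.17 ± 0.25 (SD, n = 3), a difference of 0.22 (SE 0.14, 95% interval -0.10 to 0.55), which did not pass (limma, adjusted p = 0.959; unadjusted p = 0.144). Every same-numbered culture was higher, by 0.09, 0.37 and 0.21, and with the block the unadjusted p was 0.0246 and the adjusted p 0.656. Without Sirt1 inactive replicate 2 the difference was 0.08, and without control replicate 3 it was 0.15. The proliferation marker Mki67 differed by -0.04 (SE 0.06, 95% interval -0.19 to 0.11). A part of proliferation in the Hat1 value was not tested.

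Kat2b (PCAF) and Kat2a (GCN5) are the alternative catalytic subunits of the SAGA and ATAC coactivator complexes. Kat2b read 7.92, 7.87 and 7.65 in control and 7.83, 8.04 and 7.84 in Sirt1 inactive. Control replicate 3 was the lowest array, the groups overlapped, and the difference of 0.09 (SE 0.10) was 0.01 without that array. Kat2a differed by 0.04 (SE 0.06).

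The 5 MYST acetyltransferases had a median difference of -0.02, and 2 were above 0 (with other scalings Kat5 and Kat7 turned sign). Kat6a (MOZ), a regulator of stem cell maintenance, read 10.07, 10.25 and 10.34 in control and 10.04, 10.19 and 10.13 in Sirt1 inactive, a difference of -0.10 (SE 0.08) with groups that overlapped. The Kat6a difference was -0.04 without control replicate 3 and -0.17 without control replicate 1. Its relative Kat6b (MORF) differed by -0.05 (SE 0.09) and Kat5 (TIP60), of the DNA damage response, by -0.02 (SE 0.07). Kat7 (HBO1), which acetylates histones at replication origins, was at 0.002 (SE 0.062), and Kat8 (MOF) at 0.009 (SE 0.061).

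Ep300 and Crebbp encode p300 and CBP, a pair of broad coactivators of enhancers that also acetylate transcription factors. Crebbp read 10.54, 10.55 and 10.56 in control and 10.45, 10.44 and 10.49 in Sirt1 inactive. The control values were nearly equal and all 3 Sirt1 inactive arrays lay below them, with a difference of -0.09 (SE 0.05, 95% interval -0.22 to 0.04), or 0.939 times control. Ep300 read 9.76, 9.84 and 9.90 in control and 9.74, 9.78 and 9.77 in Sirt1 inactive. Its groups overlapped through control replicate 1, and it differed by -0.07 (SE 0.06), or -0.04 without control replicate 3. Neither passed (limma, adjusted p = 0.959 for both).

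The 3 nuclear receptor coactivator genes, whose products bring p300 and CBP to hormone receptors, lay below 0. Ncoa3 read 8.73, 8.76 and 8.80 in control and 8.65, 8.67 and 8.66 in Sirt1 inactive. Its groups did not overlap, and the Sirt1 inactive arrays differed among themselves by little, with an SD of 0.01. The difference was -0.10 (SE 0.05), lower in 3 of 3 same-numbered cultures, and it did not pass (limma, adjusted p = 0.959). Ncoa1 differed by -0.06 (SE 0.07) and Ncoa2 by -0.07 (SE 0.08); without control replicate 3 these were -0.11 and -0.005.

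The 4 measured corepressor and CoREST genes were also below 0, with a median of -0.08, except that Sin3a was at 0.0020 with array medians subtracted. Rcor1, the CoREST scaffold that joins HDAC1 and HDAC2 to the demethylase KDM1A, read 10.11, 10.08 and 10.13 in control and 9.97, 10.05 and 10.02 in Sirt1 inactive. The groups were apart, by the smallest margin between control replicate 2 and Sirt1 inactive replicate 2, and Rcor1 differed by -0.09 (SE 0.06). Kdm1a itself differed by -0.08 (SE 0.09), and by -0.04 without control replicate 3. Sin3b, a scaffold of the SIN3 complex, read 9.44, 9.32 and 9.33 in control and 9.28, 9.26 and 9.34 in Sirt1 inactive, a difference of -0.07 (SE 0.06) with overlap at replicate 3; it was -0.04 without control replicate 1. Its relative Sin3a was at -0.02 (SE 0.09). The NuRD subunits Mta1, Mta2 and Mta3 were at -0.05 (SE 0.06), -0.03 (SE 0.05) and -0.004 (SE 0.060), of which Mta3 was at 0.021 with array medians subtracted. The other Mta3 probe set differed by -0.08 (SE 0.07), and by -0.01 without control replicate 3.

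Of the acetyl readers, the BET protein gene Brd3 read 9.34, 9.37 and 9.61 in control and 9.26, 9.27 and 9.32 in Sirt1 inactive. The groups did not overlap on the deposited scaling, but control replicate 3 alone stood well above the rest. Control replicate 1 (9.336) and Sirt1 inactive replicate 3 (9.323) lay closer together than the medians of these arrays (7.372 and 7.355). With array medians subtracted the groups therefore overlap. Brd3 differed by -0.16 (SE 0.08, 95% interval -0.36 to 0.05) and by -0.07 without control replicate 3. Its relative Brd2 read 10.06, 10.02 and 10.14 in control and 10.11, 10.06 and 10.12 in Sirt1 inactive. All Sirt1 inactive values of Brd2 lay within the control range, and it differed by 0.02 (SE 0.06). Bptf, the bromodomain subunit of the NURF remodeller, differed by -0.05 (SE 0.06), and its second probe set by -0.02 (SE 0.08).

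**Figure D2:**
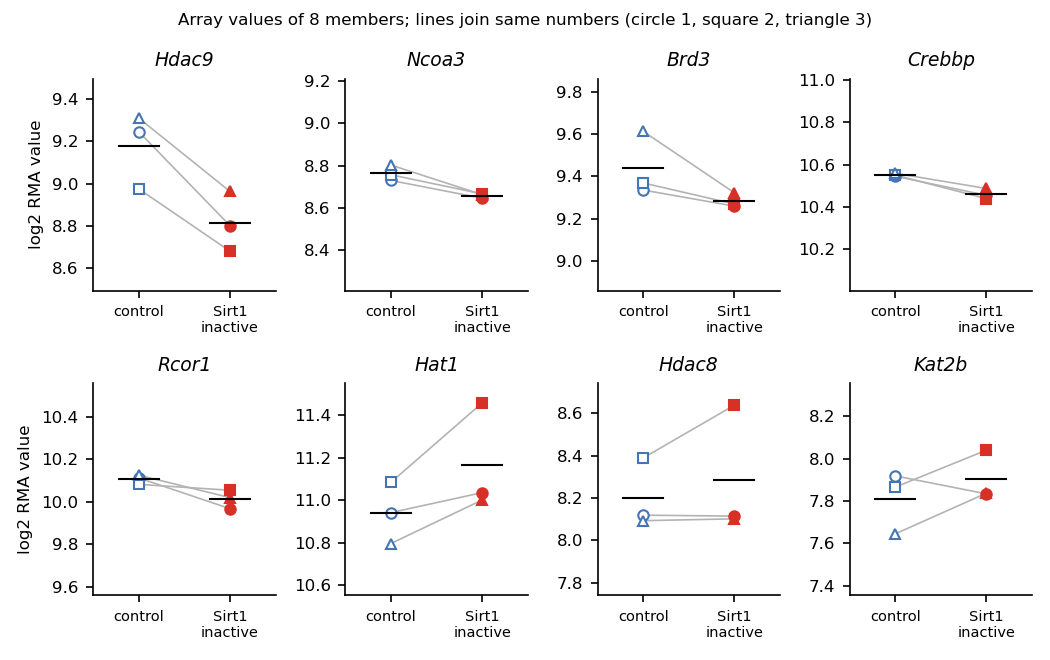
Log2 RMA values of 8 members on each array, control (open blue) and Sirt1 inactive (filled red), with same-numbered arrays joined (circle 1, square 2, triangle 3) and group means as black bars; every panel spans 1 log2 unit. On the deposited scaling Hdac9, Ncoa3, Brd3, Crebbp and Rcor1 have groups that do not overlap. Hat1, Hdac8 and Kat2b have a high Sirt1 inactive replicate 2.

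The members also differed between arrays of the same genotype. Control replicate 3 was the highest of the controls for 21 of 34 members (61.8%), against 50.2% of all genes and 42.4% of those in the upper range, and the highest of all 6 arrays for 17 (50%), against 37.8% and 31.4%. It was the lowest control for 7 of 34 members, Hat1, Kat2b, Hdac1 and Hdac8 among them, against 5041 of all 19937 genes. Without this array the members' median difference was -0.008, against -0.009 for all genes and -0.001 in the upper range. Above 0 were then 13 of 34 members, against 9048 of 19937 genes and 4910 of the 9969 in the upper range. The same number gave the highest value in both groups for 14 members (41.2%), against 46.1% of all genes and 53.8% of those in the upper range. That number was 2 for Hdac4, Hdac8, Kat6b, Sin3a and Hat1.

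**Figure D3:**
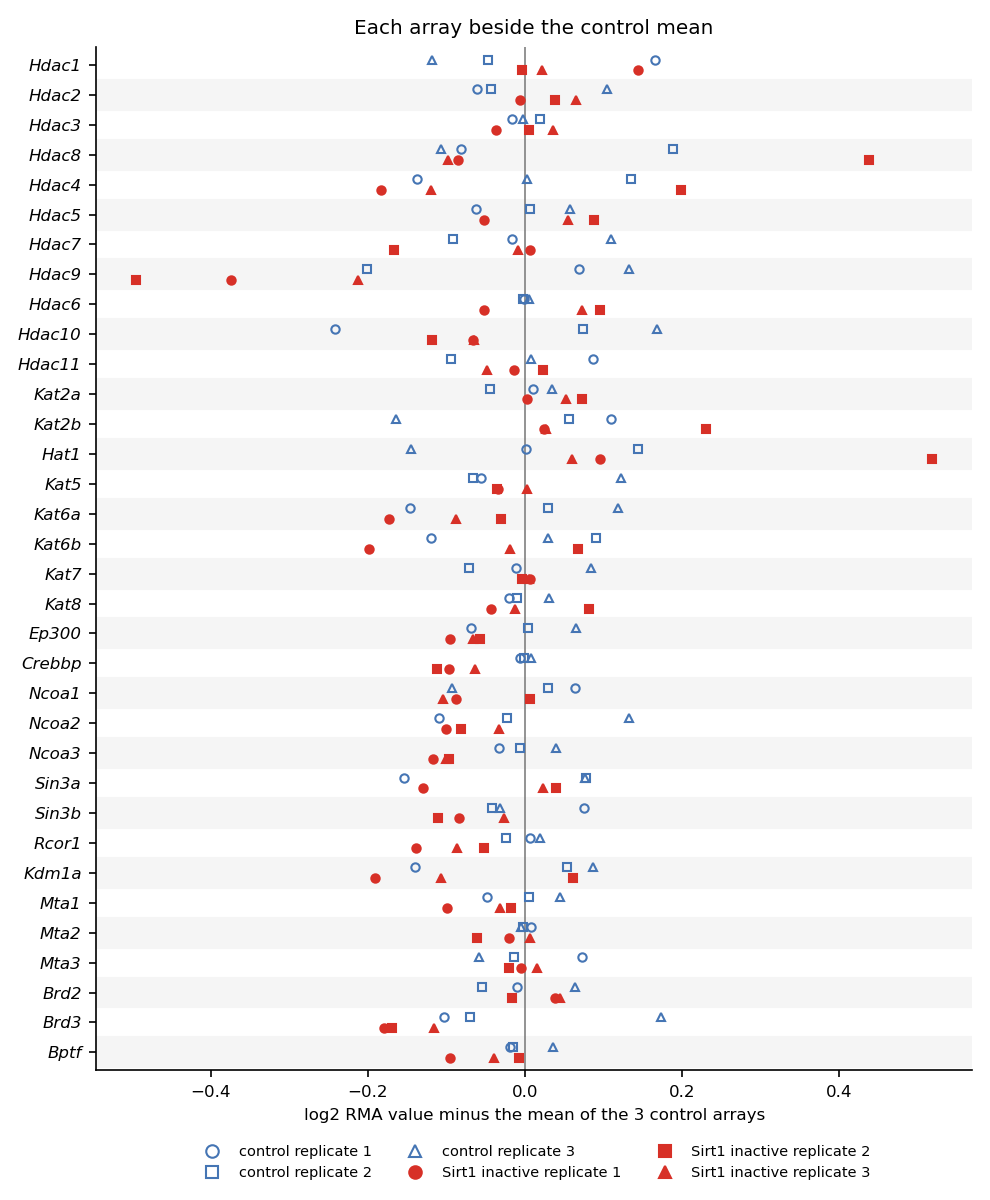
Value of each member on each array minus the mean of the 3 control arrays, in log2 units of RMA, with controls as open blue and Sirt1 inactive as filled red symbols. For most members the red and blue symbols intermingle; the Sirt1 inactive arrays of Hdac9, Crebbp, Ncoa3, Rcor1 and Brd3 all lie to the left of their controls.

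The intervals show which sizes of change these arrays allow for single genes. The upper end of the 95% interval stayed below a 1.5-fold rise for all 34 members, and below 0.32 log2 units for 32. Among all 19937 genes these counts were 19365 and 17358. The 2 other members were Hat1 (up to 1.46-fold) and Hdac8 (up to 1.37-fold). The whole interval lay within 1.5-fold either way for 33 members (97.1%, against 94.7% of all genes), with Hdac9 reaching down to 0.650 times control. Within 0.32 log2 units of 0 on both sides lay 29 members (85.3%, against 71.8% of all genes). These intervals hold for each gene alone, are not widened for the number of genes, and are on the RMA scale, which can understate a change in RNA.

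**Figure D4:**
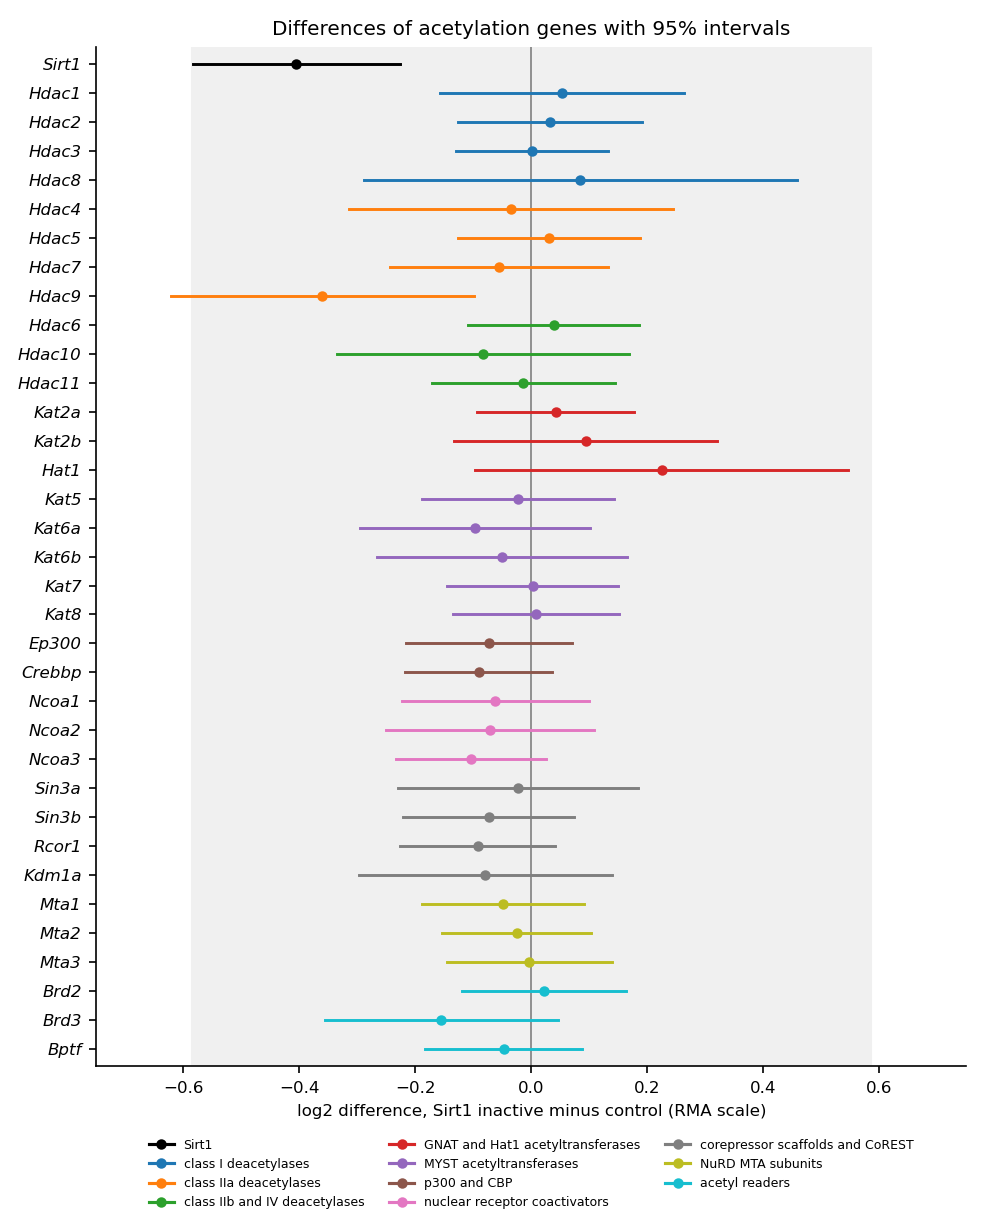
Log2 difference (Sirt1 inactive minus control, RMA scale) with its 95% interval from limma for Sirt1 and the 34 members, coloured by role; the grey band marks changes within 1.5-fold either way. Sirt1 and Hdac9 are the 2 genes whose intervals exclude 0.

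Partner genes of the same pathways were read from lists that hold no members. Of 157 listed genes 151 were measured; 0 passed over all probe sets (limma), 2 were higher and 0 lower at an unadjusted p under 0.05 (0.984% and 2.63% of all probe sets), and 6 and 2 with the block (2.5% and 5.08%). Their median difference was -0.02, and the counts above 0 that follow hold for the deposited scaling, the only one they were taken in. On that scaling 7775 of all 19937 genes lay above 0 (61.0% lay below). In the upper range it was 4755 of 9969 (52.3% lay below). The 2 genes were Dld, dihydrolipoamide dehydrogenase of the pyruvate dehydrogenase complex, at 0.28 (SE 0.09), and Hmg20b, a CoREST subunit, at 0.15 (SE 0.06) (limma, adjusted p = 0.959 for both). Of the partner genes named here, Dld, Hmg20b and Jade3 were higher without overlap of the groups on the deposited scaling. Gse1, Trim24, Trim66 and Naa60 were lower without overlap on that scaling. For Gse1 and Naa60 the margins were narrower than the gaps between the medians of the arrays concerned. With array medians subtracted their groups therefore overlap. The genes named here were picked by smallest p, which favours groups without overlap. Over all probe sets 2.62% were higher and 6.71% lower without overlap, but these shares are no measure for genes picked in this way. Of 11 measured genes of acetyl-CoA supply 9 were above 0, Pdha1 at 0.14 (0.09 without control replicate 3 or without Sirt1 inactive replicate 2) and Dlat at 0.09 (0.06 without control replicate 1) among them. Deacetylase complex partners had 11 of 35 above 0, with Gse1 at -0.13 (-0.08 without control replicate 1 or without Sirt1 inactive replicate 3) and Brms1l at 0.17 (0.08 without Sirt1 inactive replicate 2). Acetyltransferase complex partners had 22 of 50 above 0, with the scaffold genes Jade3 at 0.16 (SE 0.08) and Jade1 at -0.26 (SE 0.15), and Brpf1 at -0.14. Without control replicate 3 Jade1 was at -0.10 and Brpf1 at -0.05, and without control replicate 1 Jade1 was at -0.40. Other bromodomain and YEATS readers had 9 of 31 above 0, with Trim24 at -0.15 (SE 0.07), Trim66 at -0.13 and Dpf1 at -0.15. Without control replicate 3 Trim66 was at -0.08 and Dpf1 at -0.04. Other protein acetyltransferases had 10 of 18 above 0, with the N-terminal acetylation genes Naa15 at 0.15, Naa16 at 0.21 and Naa60 at -0.12. Naa60 was at -0.06 without control replicate 3, and Naa16 at 0.08 without Sirt1 inactive replicate 2.

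The other sirtuins, which use NAD as SIRT1 does, had 2 of 6 genes above 0, against 7775 of all 19937 genes. None of the 6 was at an unadjusted p under 0.05. Sirt2, a mainly cytoplasmic tubulin deacetylase, differed by -0.11 (SE 0.10), Sirt4 of mitochondria by -0.13 (SE 0.09) and Sirt6, a chromatin deacetylase, by -0.11 (SE 0.08). Sirt7 of the nucleolus was at -0.06 (SE 0.09). Single arrays moved these values: without control replicate 3 Sirt2 was at -0.05, Sirt6 at -0.06 and Sirt7 at -0.005, and without Sirt1 inactive replicate 1 Sirt4 was at -0.05. The mitochondrial Sirt3 and Sirt5 were at 0.02 (SE 0.07) and 0.06 (SE 0.06), and the highest upper end of a 95% interval among the 6 was 0.20, for Sirt5.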

How the data were processed

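Total RNA of 6 cultures was hybridised to 1-colour Affymetrix whole-transcript arrays. The deposited values are log2 expression values, background-adjusted and normalized by the authors with RMA per the labels and the series' design text; the labels name neither its version nor the genome build. The log2 scale was read from the values (3.02 to 13.6). A genotype term was fitted with limma 3.58.1 (R 4.3.3) to the 6 arrays, on 22961 probe sets of 34760 that have a gene in the platform annotation (21640 with 1, 1321 with several); two-sided p-values were adjusted by Benjamini-Hochberg across all of them and called at 0.05. A lookup of Entrez identifiers in RefSeq (GRCm38.p6) changed 0 symbols. The fit was run on simulated data with independent noise and changes larger than those of the members. Its power at the members' sizes was not measured. Arrays have no read depth, and their number limits the precision: the median SE of a member's difference was 0.07.

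Deviations from the group mean correlated between same-numbered cultures (0.47, 0.36 and 0.27 for numbers 1, 2 and 3, over 22961 probe sets), so the replicate number was also fitted as a block. The pairing comes from the data, since the labels give only numbers. The members and lists were chosen with earlier results of these data known. All members are named, with array values for those whose groups did not overlap, the 10 with the smallest unadjusted p, and Hdac1, Hdac2, Hdac3, Ep300, Crebbp, Kat2b and Brd2; up to 3 genes per partner list are named by smallest p. Hdac4, Hdac8 and Hdac10 were given array values after their values were seen. Alternatives were other scalings, array weights, another prior, other choices of probe sets, averaging the probe sets of a gene, and leaving out each array.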

Additional observations from a re-analysis of the deposited data

How the results depend on the processing

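The count of 0 probe sets and 0 members past the adjusted threshold held under the replicate block, the other scalings, the array weights, the other prior, the other choices of probe sets and without any single array. In an alternative chosen after seeing the data, the replicate block without number 3, which leaves 1 residual degree of freedom before moderation, 19 probe sets passed, 0 of them members. Members at an unadjusted p under 0.05 were 1 in the main analysis, 2 with the replicate block (with and without number 3), 0 with array weights and 0 to 2 without 1 array (0 without Sirt1 inactive replicate 2, 2 without control replicate 1). Over all probe sets that count was 830 in the main analysis, 1741 with the replicate block (1972 without number 3), 1376 with all 34760 probe sets tested and 456 to 1453 without 1 array, the lowest without Sirt1 inactive replicate 2 and the highest without control replicate 1. The median difference of the members stayed below 0 in every alternative and moved by less than its spread between arrays.

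Not all differences that turned sign were close to 0, since Hdac8 (0.08) and Hdac10 (-0.08) were larger than the members' median size of 0.05. Of the members 15 turned sign in an alternative, and none of these passed the adjusted threshold in any alternative. With array medians subtracted these were Hdac11 (0.011), Kat5 (0.0020), Sin3a (0.0020) and Mta3 (0.021); after a renewed quantile normalization Hdac3 (-0.010) and Kat7 (-0.0080); with array weights Hdac7 (0.014), Hdac8 (-0.075), Hdac11 (0.023), Kat5 (0.027) and Mta3 (0.0036); and with the replicate block without number 3 Hdac3 (-0.017), Hdac4 (0.0089), Hdac11 (0.0078) and Kat5 (0.026). Leaving out each array in turn, the range crossed 0 for Hdac1 (-0.0059 to 0.14), Hdac3 (-0.016 to 0.020), Hdac4 (-0.15 to 0.039), Hdac5 (-0.0012 to 0.071), Hdac8 (-0.092 to 0.18), Hdac10 (-0.20 to 0.00081), Hdac11 (-0.061 to 0.030), Kat5 (-0.056 to 0.039), Kat6b (-0.11 to 0.024), Kat7 (-0.033 to 0.044), Kat8 (-0.028 to 0.034), Sin3a (-0.0997 to 0.031), Mta3 (-0.033 to 0.033) and Brd2 (-0.0053 to 0.054). The cause was not tested. The other 19 members, Hdac9 and Hat1 among them, had the sign of the main analysis in every alternative run. Only probe sets at or above the median level left 33 members to fit. With 3 arrays per group, a member's 95% interval reached a median of 0.16 to either side of its difference. At the adjusted threshold the replicate block changed no call. At an unadjusted p under 0.05 it added Hat1 to the members. The partner genes under that p went from 2 higher and 0 lower to 6 and 2.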
